A study of Drosophila melanogaster with 12 samples.

Results

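Random-primed and poly(A)-primed sequencing libraries were compared on the same RNA, larval total RNA from which ribosomal RNA (rRNA) had been removed with biotinylated oligonucleotides (Ribo-Pop). The libraries were chosen by their labels, with earlier results of these data known. Of the 12 libraries of the series 6 were made after depletion, 3 by random priming and 3 by poly(A) priming. The other 6 are the undepleted input libraries. The RNA came from Oregon-R wild type Drosophila melanogaster at the wandering stage of the third instar, with 40 whole larvae pooled in each of 3 RNA samples and no treatment beyond the depletion that all 6 libraries share. A synthetic RNA spike-in (SIRV) was added to each sample before depletion. Of 17813 genes in the count table, 138 with rRNA in the symbol and 7 SIRV genes were left out, which left 17668 genes.

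The methods differ in where the reverse transcription primer anneals. They also differ in library kit, RNA input and number of PCR cycles, which cannot be told apart from the priming here. Random primers start anywhere along an RNA, so that an RNA without a tail can be copied and a long RNA gives more fragments than a short one. An oligo(dT) primer starts at a stretch of A, usually the poly(A) tail of an mRNA, and the library used here (QuantSeq) then samples each transcript near its 3′ end, whatever its length. RNAs that carry no stable poly(A) tail include the mRNAs of the replication-dependent histones, which end in a stem-loop, the spliceosomal snRNAs, the guide RNAs of the nucleolus and Cajal body (snoRNA and scaRNA), transfer RNAs, and the noncoding RNAs 7SK, 7SL and the RNA subunits of RNase P and RNase MRP.

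The random-primed libraries held between 9037947 and 12422418 estimated counts outside rRNA and SIRV, and the poly(A)-primed libraries between 2495307 and 4199300. Levels are given below as counts-per-million of those counts (CPM), so that 1 count was worth 0.0805 to 0.111 CPM in a random-primed and 0.238 to 0.401 CPM in a poly(A)-primed library. The rRNA genes still held 23.7% to 33.4% of all counts in the random-primed and 7.64% to 23.4% in the poly(A)-primed libraries. Within a method, the log2 CPM of 2 libraries correlated across genes with a Pearson's r between 0.96 and 0.99, and between methods with r between 0.77 and 0.80, where genes are not independent replicates. All 19 markers of salivary gland, fat body, muscle, epidermis, neurons and hemocytes had counts, 18 of them with 10 or more in every library. Because whole larvae were used, the number of cells of a type and the RNA per cell cannot be told apart in any level below.

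The call between the methods was made for most genes. In edgeR's quasi-likelihood test and p-values adjusted by Benjamini-Hochberg, 6407 of 11467 tested genes (55.9%) passed an adjusted p of 0.01, 3354 (29.2%) higher in the random-primed and 3053 (26.6%) higher in the poly(A)-primed libraries. With the further demand of at least a 4-fold difference, 999 genes (8.71%) were higher by random priming and 755 (6.58%) by poly(A) priming. These differences are relative to the typical gene, since the scaling (TMM) centres on it. On CPM alone the median gene lay 0.56 higher on the log2 scale in the random-primed libraries, and 4846 genes were called higher there against 1768. Scaled by the SIRV spike-ins the median lay at 1.27, and the split was 6085 against 499. A direction given below that turns under either scaling is named as such.

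**Figure D1:**
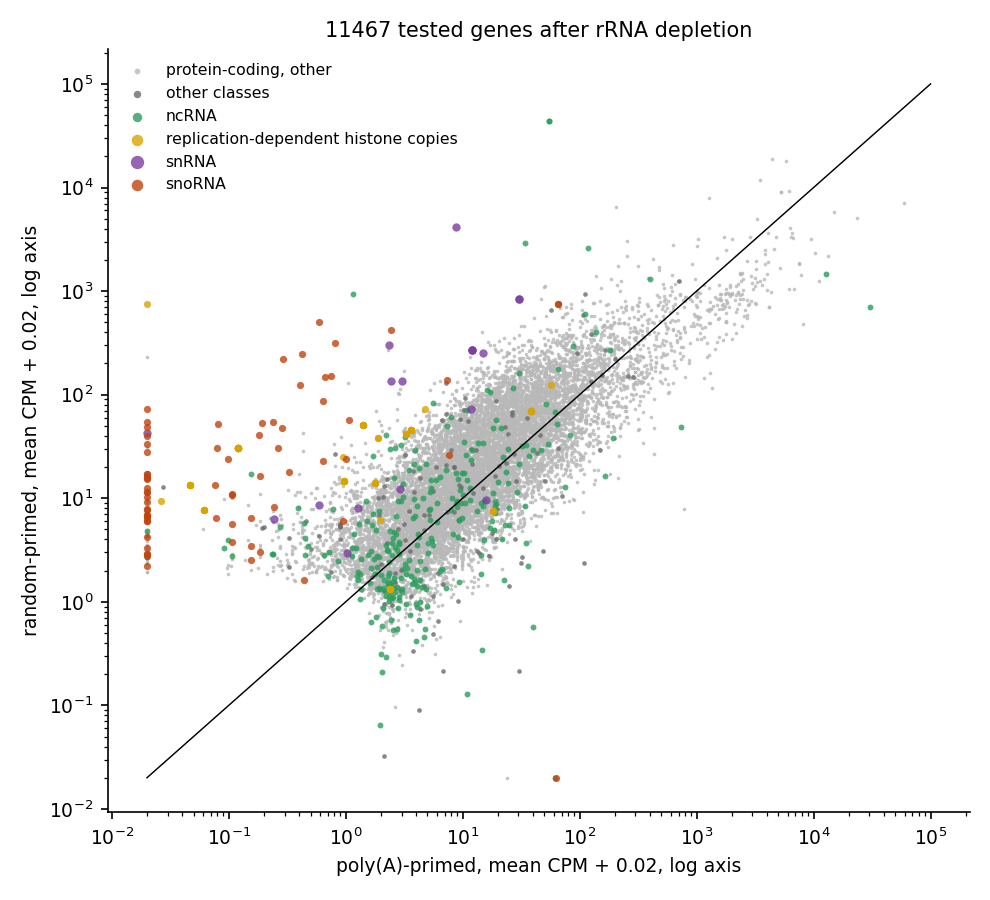
Each point is one of 11467 tested genes, placed by its mean CPM in the 3 poly(A)-primed (horizontal) and the 3 random-primed libraries (vertical), both on log axes with 0.02 CPM added, and the line marks equal CPM. Most snoRNA, snRNA and histone copies lie above the line, with exceptions such as 9 H2A copies, snoRNA:Or-CD15 and snRNA:U5:63BC below it, and with a column of genes at 0 in the poly(A)-primed libraries on the left edge, and the green points at the far right are ncRNAs with the lower level by random priming.

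Annotated classes of RNA took different shares of the 2 kinds of library. Small nuclear RNA held 0.759% ± 0.17 (SD, n = 3) of the counts by random priming and 0.0165% ± 0.0034 by poly(A) priming, 45.9 times as much. Within this class 7SK alone held 0.412% by random priming and 0.000879% by poly(A) priming. Small nucleolar RNA held 0.493% ± 0.13 and 0.0231% ± 0.0068, which is 21.3 times as much. Protein-coding genes held 87.8% ± 2.46 by random priming and 94.8% ± 0.84 by poly(A) priming. The remaining noncoding RNA (the class ncRNA) held 10.3% ± 2.14 against 4.82% ± 0.84, but this order turned when the 7SL genes were left out, to 1.51% ± 0.28 against 4.81% ± 0.84. Most of the latter came from lncRNA:CR34335 and lncRNA:CR40469, and without these as well, a choice made after seeing the data, the order turned back, to 1.30% ± 0.22 by random and 0.497% ± 0.046 by poly(A) priming. Transfer RNA (0.00275% against 0.0107%) and pseudogenes (0.0521% against 0.0982%) had the lower share by random priming. The tRNA class mixes mitochondrial tRNA, at 0.00113% against 0.00963%, with cytosolic tRNA, at 0.00164% against 0.00114% with overlapping ranges. In each of the 8 classes compared the 3 random-primed values lay on one side of the 3 poly(A)-primed values, and the exact two-sided permutation test gave p = 0.1, the smallest that 3 against 3 libraries allow (0.1 after adjustment over the 8).

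The most abundant RNA of the random-primed libraries was 7SL, the RNA scaffold of the signal recognition particle, which directs secreted proteins to the endoplasmic reticulum. Its 2 annotated copies together had 76760, 76880 and 109000 CPM by random priming and 52.1, 92.8 and 185 CPM by poly(A) priming. The lowest random-primed library was thus far above the highest poly(A)-primed one, and the ratio of the means was 796. The 2 copies have equal estimates in the table, so only their sum is read here. They made up 8.76% of the counts by random priming and 0.0110% by poly(A) priming.

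The 7SK, RNase P and RNase MRP RNAs were likewise far higher by random priming. 7SK, the RNA that holds the elongation factor P-TEFb inactive, had 3734, 3363 and 5253 CPM by random priming and 6.67, 7.28 and 12.4 CPM by poly(A) priming, a ratio of means of 468. RNase P RNA, the catalytic RNA that trims the 5′ end of tRNA precursors, had 781, 804 and 1200 CPM against 0.523, 0.388 and 2.48 CPM. That ratio of 821 rests on 1.49 to 6.20 estimated counts per poly(A)-primed library, and it was 2039 without poly(A)-primed replicate 3. RNase MRP RNA, whose enzyme cleaves precursor rRNA, had 2692, 2376 and 3700 CPM against 33.1, 22.4 and 46.1 CPM, a ratio of 86.3. All 5 genes, against 29.2% of all tested genes, were called higher in the random-primed libraries (edgeR quasi-likelihood test, log2 differences of 5.91 to 9.50). Of these 5, 2 are the 7SL copies with equal estimates and are not separate results. The gene of RNase P RNA (chromosome 3R, bases 31217364 to 31217662 of the minus strand, assembly BDGP6) lies within ATPsynC on the same strand (Ensembl release 115), and reads of overlapping genes on a strand may be split between them.

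Among the snRNAs of the spliceosome, which removes introns from pre-mRNA, U1, U2, U4, U11 and U12 were far higher by random priming, the ranges of U5 overlapped and U6 was hardly counted by either method. U2, which pairs with the branch point, was the most abundant in these depleted libraries. It had 1652, 1887 and 2574 CPM over its 6 copies by random priming and 81.4, 78.2 and 103 CPM by poly(A) priming. U1, which pairs with the 5′ splice site, had 633, 848 and 1020 CPM over 5 copies against 33.8, 35.6 and 48.8 CPM. U4, the partner of U6 in the tri-snRNP, had 111, 139 and 178 CPM against 2.43, 2.81 and 3.13 CPM. The largest ratio was that of U11, the counterpart of U1 in the minor spliceosome, with 252, 276 and 377 CPM against 1.91, 1.82 and 3.21 CPM, or 131 times as much. U12, the minor counterpart of U2, had 118, 123 and 168 CPM against 1.43, 2.34 and 5.21 CPM.

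U5, which holds the exons together during splicing, had 12.3, 17.2 and 26.3 CPM over 7 copies by random priming and 15.5, 16.4 and 26.0 CPM by poly(A) priming. These ranges overlap almost fully, and the exact permutation test gave p = 1. Its copies went apart: snRNA:U5:63BC was called higher in the poly(A)-primed libraries, with a log2 difference of -1.24 ± 0.32 (SE; edgeR adjusted p = 0.00467), and snRNA:U5:23D was not called at a log2 difference of 2.33 ± 0.67 (edgeR adjusted p = 0.0102). The call for snRNA:U5:63BC was lost when random-primed replicate 1 or 2 or poly(A)-primed replicate 1 or 3 was left out, with log2 differences of -0.97 to -1.32, and on CPM alone or with the spike-in scaling. U6, the catalytic snRNA that polymerase III transcribes, had only 0.992 to 1.47 CPM by random priming and 0.602 to 1.05 CPM by poly(A) priming. The U7 snRNA of histone mRNA processing had no count in any of the 6 libraries. Of the 29 genes of the list 17 passed the filter on low counts, and 14 of these were called higher by random priming and 1 by poly(A) priming, against 29.2% and 26.6% of all tested genes. The filter keeps a gene that is abundant in either group, and 16 reached 5 CPM in every random-primed library but 7 in every poly(A)-primed one. With at least 10 counts in each library 8 were tested, 7 called higher by random and 1 by poly(A) priming, against 2664 and 2515 of all 8571 tested genes. The assignment of reads among copies of a U type is uncertain.

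**Figure D2:**
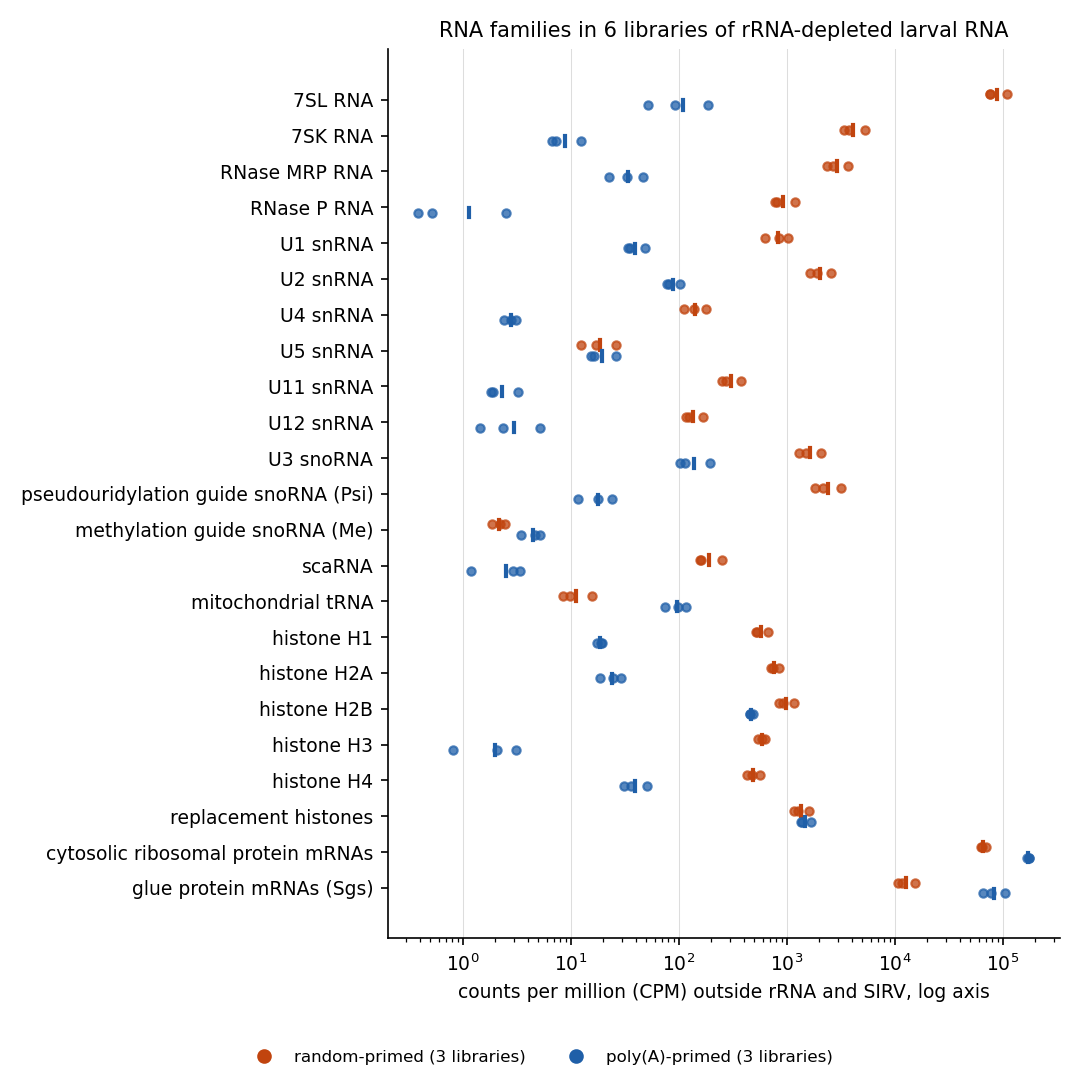
CPM of 23 RNA families (copies summed) in each of the 3 random-primed and 3 poly(A)-primed libraries on a log axis, with a bar at each mean. 7SL, 7SK, the RNase RNAs, most snRNAs, the pseudouridylation guides and histones H1, H2A, H3 and H4 lie 1 to 3 decades higher by random priming, U5 and the replacement histones overlap, and ribosomal protein and glue mRNAs lie higher by poly(A) priming.

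The snoRNAs and scaRNAs, which guide the modification of rRNA and snRNA, split by kind. The 109 annotated pseudouridylation guides (box H/ACA, median length 140 bases) together had 1829, 2177 and 3157 CPM by random priming and 11.7, 17.9 and 24.3 CPM by poly(A) priming, 133 times as much. The 103 methylation guides (box C/D, median length 79 bases) had 1.86, 2.23 and 2.44 CPM against 3.45, 4.61 and 5.23 CPM, so that they were hardly counted by either method. The 3 genes of U3, the box C/D snoRNA needed for cleavage of the small-subunit rRNA precursor, had 1291, 1511 and 2090 CPM against 102, 113 and 195 CPM, a ratio of 11.9. The 17 scaRNAs of the Cajal body had 156, 161 and 253 CPM against 1.19, 3.38 and 2.89 CPM.

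Of the 304 snoRNA and scaRNA genes 50 reached 5 CPM in every random-primed library and 4 in every poly(A)-primed one. The 71 that passed the filter on low counts held 67 called higher by random priming and 2 by poly(A) priming, against 29.2% and 26.6% of all tested genes, with a median log2 difference of 7.47 against 0.01 over all tested genes. Since the filter keeps a gene that is abundant in either group, such counts describe the tested members and not the whole family. snoRNA:Psi18S-176 had 366, 463 and 663 CPM by random priming and 0, 0.520 and 1.20 CPM by poly(A) priming. snoRNA:Psi18S-1377e, which lies within the ribosomal protein gene RpS7, had 56.8, 64.8 and 95.2 CPM and no estimated poly(A)-primed count, at least 47.2-fold higher against a floor of 3 counts per poly(A)-primed library. The authors' second count of the poly(A)-primed libraries (HTSeq) gave it 1, 0 and 1. snoRNA:Psi28S-1192a within RpS5a had 40.9, 49.8 and 71.5 CPM and no estimated poly(A)-primed count, at least 34.0-fold higher. These estimates of 0 are uncertain, since reads of overlapping genes on a strand may be split between them. The U3 genes snoRNA:U3:54Aa and snoRNA:U3:54Ab, which have equal estimates, were each higher by random priming by 3.01 ± 0.28 on the log2 scale (edgeR adjusted p = 3.69e-06). The reverse was seen for snoRNA:Or-ACA9, with 0.401, 0 and 0.484 CPM against 1.84, 1.49 and 2.60 CPM.

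Transfer RNAs, the adaptors of translation, were scarce in both kinds of library. The 297 cytosolic tRNA genes summed to 11.9, 16.3 and 20.9 CPM by random priming and 8.96, 11.4 and 13.9 CPM by poly(A) priming, ranges that overlap (exact permutation test p = 0.2). Between libraries of the same replicate number the ratio was 1.33 to 1.51. On spliced counts the ratio of the means turned from 1.44 to 0.407. Only 2 of them passed the filter, 1 called in each direction. tRNA:Tyr-GTA-1-9 had 9.39, 12.4 and 16.3 CPM against 0.0217, 0 and 0 CPM, and all of its random-primed counts fell on intronic sequence of the index. It made up most of the random-primed sum and overlaps Ntl on the same strand. tRNA:Tyr-GTA-1-5 had 0, 0.0364 and 0 CPM against 1.93, 2.05 and 2.29 CPM. The 260 miRNA precursors, short hairpins that are cut to mature miRNAs, summed to 6.66 to 7.62 CPM by random and 1.79 to 4.18 CPM by poly(A) priming. The 1 precursor that was tested, mir-4951, lies within the long noncoding RNA Hsromega and had 4.58, 4.52 and 5.22 CPM against no count.

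The 22 mitochondrial tRNAs, which punctuate the mitochondrial transcripts between the mRNAs, went the other way. They summed to 8.45, 9.77 and 15.6 CPM by random priming and 74.5, 99.03 and 115 CPM by poly(A) priming, 8.54 times as much. Of the 6 tested, 5 were called higher by poly(A) priming, against 26.6% of all tested genes. The filter keeps a gene that is abundant in either group. Of the 22, 0 reached 5 CPM in every random-primed library and 4 in every poly(A)-primed one, so the calls describe the tested members only. With at least 10 counts in each library 3 were tested and 3 called higher by poly(A) priming, against 2515 of all 8571 tested genes. mt:tRNA:Ser-GCT had 0.0805, 0.166 and 0.332 CPM against 26.2, 33.0 and 31.7 CPM, a log2 difference of -7.80 ± 0.32 (edgeR adjusted p = 6.78e-08). mt:tRNA:Ala-TGC had 1.61, 0.911 and 1.66 CPM against 19.1, 24.7 and 31.3 CPM. With the random-primed counts taken per transcript length the median of the 6 turned from -2.70 to 2.11.

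The replication-dependent histone mRNAs, made in S phase from a cluster of tandem repeats, were higher by random priming in every one of the 5 kinds, but by very different amounts. Histone H3 had 589, 535 and 630 CPM over 23 copies by random priming and 3.10, 2.08 and 0.802 CPM by poly(A) priming, 294 times as much on only 2 to 13 poly(A)-primed counts per library. The linker histone H1 had 524, 519 and 676 CPM against 19.1, 17.4 and 19.5 CPM. H2A had 747, 708 and 842 CPM against 24.7, 18.7 and 29.1 CPM. These ratios of 30.7 and 31.7 lay well below that of H3. H4 had 475, 423 and 565 CPM against 31.2, 36.4 and 50.5 CPM, a ratio of 12.4. H2B stood apart at a ratio of 2.12, with 928, 846 and 1175 CPM against 481, 454 and 454 CPM. The exact permutation test gave p = 0.1 for each kind, the smallest possible (0.125 adjusted over 30 RNA families).

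Of the 111 copies 86 were tested, 58 called higher by random and 9 by poly(A) priming, against 29.2% and 26.6% of all tested genes, with a median log2 difference of 3.69. The filter keeps a copy that is abundant in either group, and 75 copies reached 5 CPM in every random-primed library but 10 in every poly(A)-primed one. With at least 10 counts in each library, 19 copies were tested and 9 called higher by random priming, against 2664 of all 8571 tested genes. Their median was 0.72. The 9 calls in the poly(A) direction concern H2A copies near 1.32 CPM by random and 2.35 CPM by poly(A) priming, and none of them was called when any single library was left out or by DESeq2. Copies of a histone are nearly identical and the assignment of reads among them is uncertain: His2A:CG33808 alone held 719, 693 and 832 CPM, nearly all random-primed reads of H2A, and no poly(A)-primed count. The replacement histones, made throughout the cell cycle from polyadenylated mRNAs, did not follow. Their 5 genes summed to 1271, 1156 and 1594 CPM by random and 1356, 1378 and 1668 CPM by poly(A) priming (exact permutation test p = 0.5). Taken singly, 3 of the 5 were called higher by poly(A) priming and 0 by random priming, with a median log2 difference of -1.38. With counts per length 1 was called higher by poly(A) priming and the median was -0.33. His3.3A had 35.3, 38.5 and 38.9 CPM against 145, 134 and 130 CPM, a log2 difference of -2.41 ± 0.14 (edgeR adjusted p = 2.09e-07), whereas His3.3B had 898, 793 and 1146 CPM against 617, 671 and 875 CPM and was not called (-0.15 ± 0.20, edgeR adjusted p = 0.53), but turned to 1.09 with the spike-in scaling (edgeR adjusted p = 0.000752).

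**Figure D3:**
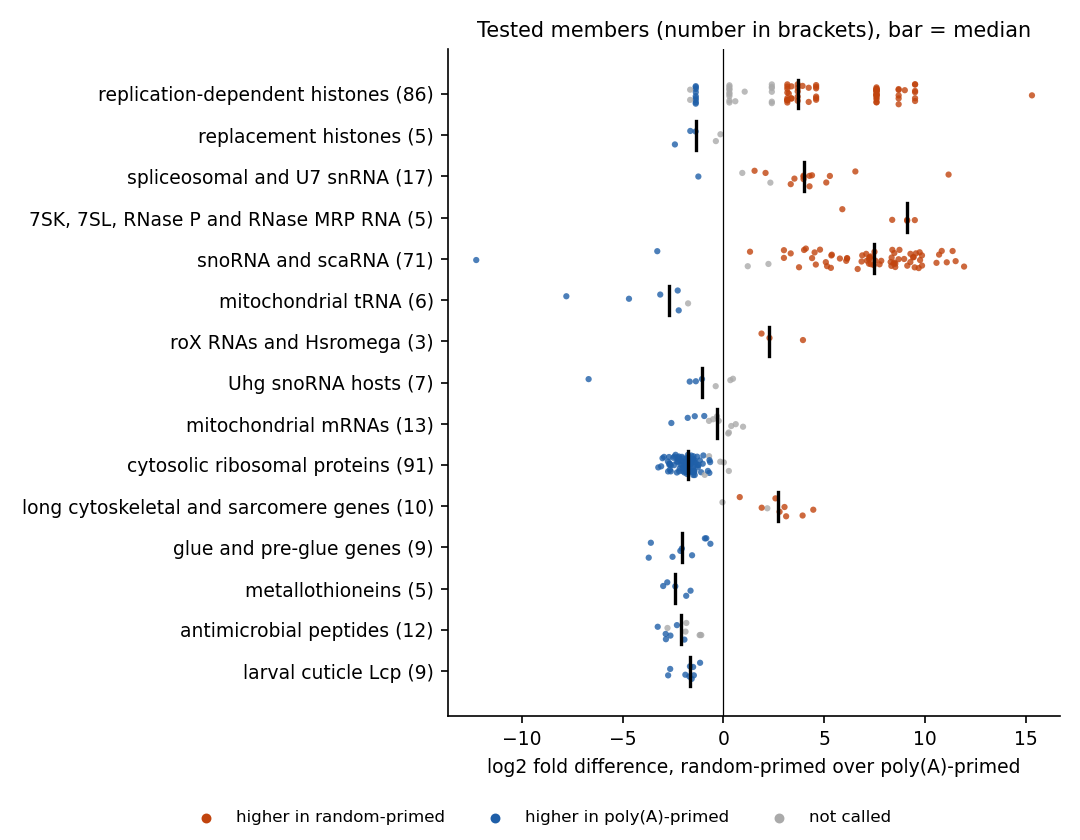
Log2 fold difference (random-primed over poly(A)-primed) of every tested member of the RNA and gene lists, 1 point a gene, coloured by the call at an adjusted p of 0.01, with a black bar at each median. The medians lie at 3.69 for replication-dependent histones, 3.98 for snRNAs and 7.47 for snoRNAs and scaRNAs. They lie below 0 for ribosomal protein, glue and pre-glue, cuticle, metallothionein and antimicrobial peptide genes.

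Counted by a plain level, 8741 genes reached 5 CPM in every random-primed library and 7489 in every poly(A)-primed one, 6991 in both. The 1750 that did so by random priming alone had a median transcript length of 2743 bases and held 1637 protein-coding genes, 47 snoRNAs, 40 ncRNAs and 9 snRNAs. The 498 found by poly(A) priming alone had a median length of 799 bases and held 456 protein-coding genes, 22 ncRNAs and 14 pseudogenes. The random-primed libraries were deeper, and the part of depth in these counts was not tested.

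A stricter set, at least 5 CPM in each library of one method and under 1 count in each library of the other, held 68 genes for random priming and 3 for poly(A) priming. The 68 were 31 histone copies, 22 snoRNAs and scaRNAs, 13 other protein-coding genes, the U2 copy snRNA:U2:14B and tRNA:Tyr-GTA-1-9. The histone entries, 23 copies of H3, 7 of H1 and 1 of H2A, follow from how reads were divided among near-identical copies: the H3 family had 2 to 13 poly(A)-primed counts per library and the H1 family 48.8 to 80, spread so that each of these copies stayed under 1. The number of histone entries is thus no count of RNAs missed by poly(A) priming. snRNA:U2:14B had 26.8, 53.7 and 47.6 CPM by random priming, but its 0 by poly(A) priming is uncertain in the same way, since the U2 family had 258 to 342 poly(A)-primed counts and HTSeq gave this copy 0, 1 and 1. The highest of the 13 was alpha4GT2, a glycosyltransferase gene, with 186, 205 and 301 CPM, all of it on intronic sequence. Of the 68, 35 overlap another gene on the same strand, against 1798 of all 11467 tested genes. They include most of the 13 other protein-coding genes, such as Ada2a (with Polr2D), CG42359 (with Nsun5) and CG46317 (with Tat). Only alpha4GT2 and CG12592 of the 13 have no such overlap. In a second table of the poly(A)-primed libraries, counted by HTSeq from genome alignments, 55 of the 68 had no count either. Among those that did, Nf-YA, a subunit of the CCAAT-binding factor, had 9, 16 and 7 counts, CG42359 had 58, 55 and 37, and snoRNA:Or-CD2 had 13, 9 and 4, so that reads assigned to them were present in the poly(A)-primed libraries. HTSeq was given uniquely mapped reads and leaves out reads that fit overlapping genes, so a 0 in that table is no second measurement for the histone copies or for RNAs inside another gene.

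The 3 genes seen by poly(A) priming only were snoRNA:Or-CD15 with 33.7, 97.3 and 56.7 CPM, lncRNA:SMRG with 48.7, 70.6 and 65.8 CPM, and CG33664 with 11.1, 18.5 and 41.9 CPM. None of them had more than 1 count in a library of the HTSeq table. snoRNA:Or-CD15 lies within RpL23A and Uhg7, and lncRNA:SMRG overlaps Tis11 on the same strand. Their levels by poly(A) priming thus differed between the counting methods.

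Long transcripts were higher by random priming and short ones by poly(A) priming. The 999 genes at least 4-fold higher by random priming had a median length of 4335 bases, the 755 at least 4-fold higher by poly(A) priming 601.5 bases, and all tested genes 1862 bases. Protein-coding genes were split into 5 equal groups by the length of their longest transcript, with median lengths of 735, 1294, 1903, 2863 and 5227 bases. The median log2 difference rose from -1.54 in the shortest group through -0.65, 0.00 and 0.67 to 1.47 in the longest. In the longest group 1755 genes were called higher by random priming and 30 by poly(A) priming, and in the shortest 58 and 1575. Spearman's rho of the log2 difference with length was 0.77 across genes, which share the 6 libraries. When the random-primed counts were taken per length in the fit, the medians of the 5 groups lay between -0.14 and 0.05, and 1235 genes (10.8%) were called higher by random priming and 1732 (15.2%) by poly(A) priming, 391 (3.43%) and 150 (1.31%) of them at least 4-fold.

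**Figure D4:**
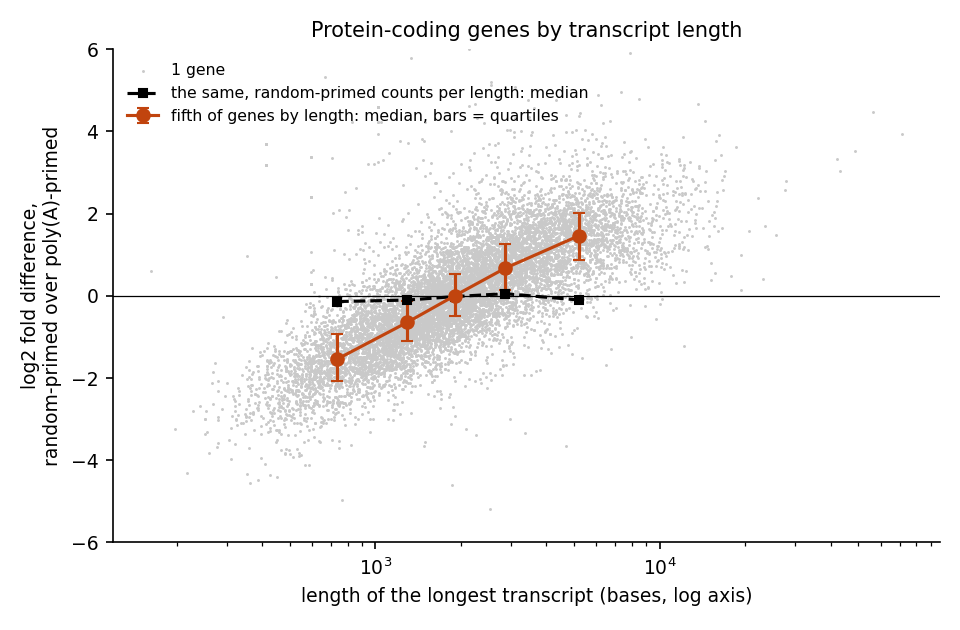
Log2 fold difference (random-primed over poly(A)-primed) of protein-coding genes against the length of their longest transcript in bases (log axis), 1 grey point a gene, with 63 genes beyond the plotted range of 6. Red points are medians of 5 equal groups by length with bars from the lower to the upper quartile and climb from -1.54 to 1.47, while the black squares, with random-primed counts per length, stay between -0.14 and 0.05.

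The genes of giant muscle and matrix proteins were among those higher by random priming. sls, the titin-like protein of the sarcomere, had 6259, 6317 and 7054 CPM by random priming and 190, 244 and 180 CPM by poly(A) priming, a log2 difference of 4.46 ± 0.20 (edgeR adjusted p = 8.59e-08). Its longest transcript has 56489 bases, and with counts per length the difference was -0.45. dpy, a giant protein of the cuticle matrix, had 1149, 1349 and 867 CPM against 36.7, 61.8 and 53.2 CPM. Msp300, a nesprin that positions muscle nuclei, had 2865, 3406 and 2837 CPM against 230, 296 and 238 CPM. Of the 10 long cytoskeletal genes listed 8 were called higher by random priming, against 29.2% of all tested genes, and none by poly(A) priming, with a median of 2.69. With counts per length none was called higher by random priming and 5 by poly(A) priming.

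Random priming also counted more intronic sequence. Intronic counts made up 7.38%, 7.09% and 8.20% of the random-primed libraries and 2.16%, 2.38% and 2.30% of the poly(A)-primed ones, 3.31 times as much (exact permutation test p = 0.1, the smallest possible). Among the 999 genes at least 4-fold higher by random priming 112 (11.2%) had more than 50% of their random-primed counts on introns, against 3.70% of all tested genes. In the fit on spliced counts 875 of the 999 remained at least 4-fold higher. Ir40a, a receptor of humidity-sensing neurons, was named after its values were seen: it had 237, 218 and 346 CPM against 1.63, 2.52 and 2.76 CPM, with 99.8% of its random-primed counts on introns.

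Among the RNAs higher by poly(A) priming was lncRNA:CR34335, an unspliced noncoding RNA of 361 bases (chromosome X, bases 3545750 to 3546110, minus strand, BDGP6). It had 544, 604 and 966 CPM by random priming and 29230, 25010 and 36550 CPM by poly(A) priming, which was 3.03% of all poly(A)-primed counts. The log2 difference was -5.96 ± 0.32 (edgeR adjusted p = 1.69e-07), and -3.585 with counts per length. HTSeq gave it 119874, 95585 and 90193 counts. It lies within DIP-alpha, an immunoglobulin protein of synaptic partner choice, on the same strand. DIP-alpha itself had 8.07, 7.74 and 7.87 CPM against 796, 630 and 930 CPM, but 99.8% of the latter were intronic, the log2 difference on spliced counts was 1.17 (edgeR adjusted p = 0.0235, not called) in place of -7.18, and HTSeq gave it 4, 5 and 7 counts.

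Other RNAs with large differences in this direction included CG7606, with 467, 363 and 623 CPM against 8657, 6178 and 9574 CPM, a log2 difference of -4.61 ± 0.29. With counts per length its difference was -4.60. CG17738 had 126, 108 and 114 CPM against 1622, 1214 and 1213 CPM, and its log2 difference moved from -4.09 to -1.90 with counts per length. CG41128 had 25.6, 22.0 and 32.0 CPM against 418, 387 and 482 CPM, and its log2 difference moved from -4.56 to -2.19. In each of these 3 the lowest poly(A)-primed library was several times the highest random-primed one. lncRNA:CR40469, named after its values were seen, had 1252, 1201 and 1949 CPM against 10950, 12090 and 15530 CPM, and its log2 difference moved from -3.67 to -0.53 with counts per length.

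**Figure D5:**
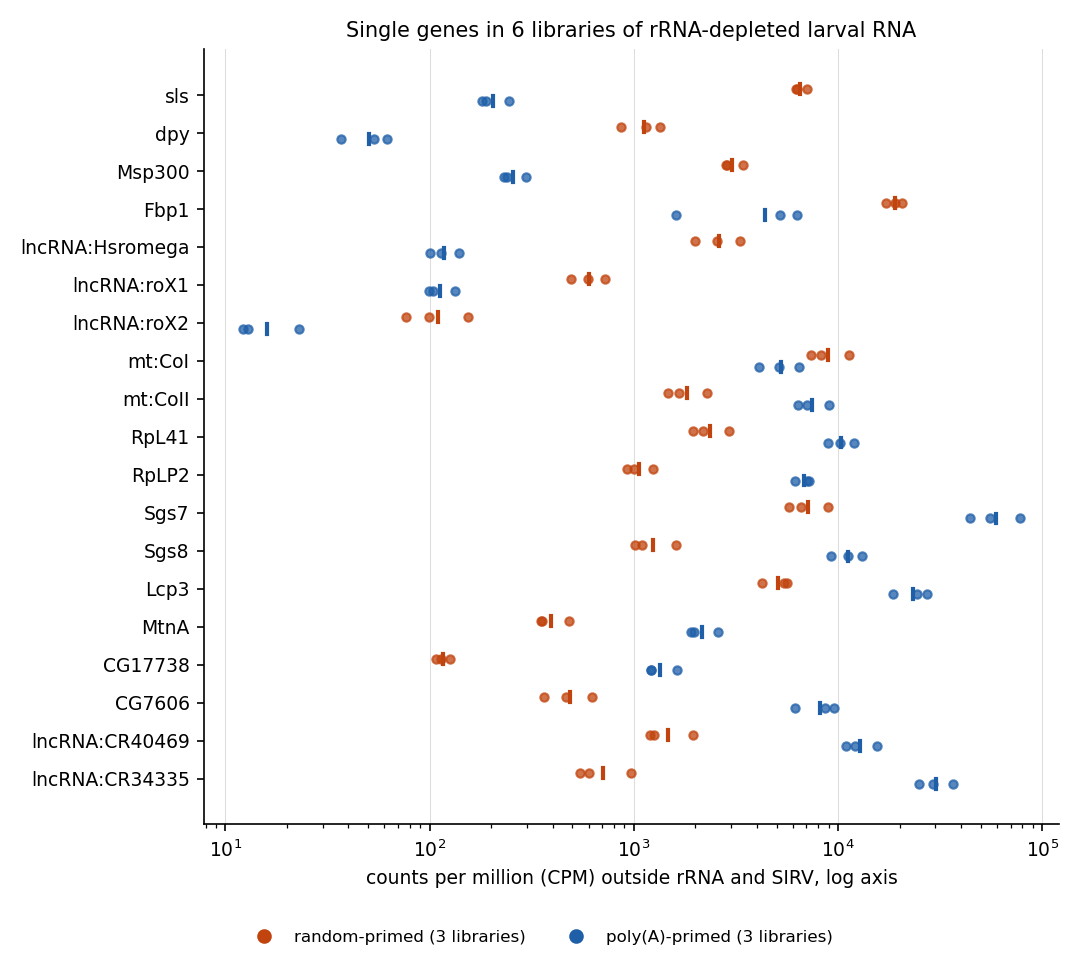
CPM of 19 single genes in each of the 3 random-primed and 3 poly(A)-primed libraries on a log axis, with a bar at each mean. sls, dpy, Msp300, Hsromega and the roX RNAs lie higher by random priming, mt:CoI and mt:CoII lie on opposite sides, and the short ribosomal, glue, cuticle and metallothionein mRNAs and lncRNA:CR34335 lie higher by poly(A) priming.

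The mRNAs of ribosomal proteins, which are short and abundant, were higher by poly(A) priming. The 92 cytosolic ribosomal protein genes took 64440, 62620 and 70330 CPM by random priming and 175600, 167500 and 173400 CPM by poly(A) priming, 2.62 times as much. Of the 91 tested, 86 were called higher by poly(A) priming, against 26.6% of all tested genes, and none by random priming, with a median of -1.78. RpLP2, an acidic stalk protein, had 1004, 924 and 1239 CPM against 7072, 6174 and 7197 CPM, and RpL41, a very short protein, had 2170, 1956 and 2920 CPM against 10170, 8924 and 12020 CPM. RpL22-like was not called (0.27, edgeR adjusted p = 0.432), but was called higher by random priming with the spike-in scaling. With that scaling the count in the poly(A) direction was 31, and with counts per length to 47.

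The glue genes, whose proteins the salivary gland stores before pupariation, were called higher by poly(A) priming in 9 of 9 tested, against 26.6% of all tested genes. With counts per length 4 were called in this direction and 1 in the other, and the median moved from -2.06 to -0.58. Sgs7 had 6620, 5775 and 8882 CPM against 55160, 44390 and 77780 CPM, and at 5.91% of the counts it was the most abundant RNA of the poly(A)-primed libraries. Sgs8 had 1098, 1019 and 1611 CPM against 11140, 9192 and 13150 CPM. The larval cuticle proteins were also called in 9 of 9 tested, but in 1 with counts per length, where the median moved from -1.66 to -0.34. Lcp3 had 5636, 5422 and 4236 CPM against 27160, 24370 and 18530 CPM, the lowest value in replicate 3 of both methods. With the spike-in scaling 4 glue and pre-glue genes and 2 cuticle genes were still called, and Lcp1 and ng3 turned to 0.11 and 0.62 on the log2 scale. The call of ng3 (-0.65, edgeR adjusted p = 0.00639) was also lost without random-primed replicate 1 or any 1 of the poly(A)-primed replicates (-0.47 to -0.65).

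The metallothioneins, small metal-binding proteins, were called higher by poly(A) priming in 5 of 5, against 26.6% of all tested genes, and in 2 with the spike-in scaling. With counts per length 1 was called in each direction. MtnA had 350, 355 and 479 CPM against 1968, 1903 and 2594 CPM. The antimicrobial peptide genes were called in 6 of 12 tested, in 12 of 12 when the replicate number was a block (against 34.1% of all tested genes in that fit), and in 2 with the spike-in scaling. With counts per length none of the 12 was called and their median turned from -2.12 to 0.09. Drsl5, a drosomycin-like peptide, had 274, 229 and 502 CPM against 1442, 1197 and 2368 CPM. DptB, a diptericin, had 2.66, 4.39 and 0.996 CPM against 21.4, 26.8 and 4.41 CPM, so that the same replicate was lowest by both methods, and its call (-3.26, edgeR adjusted p = 0.00294) was lost without random-primed replicate 1 or 2 or poly(A)-primed replicate 2 (edgeR adjusted p = 0.0108 to 0.0277). AttA was not called without the block (-1.10, edgeR adjusted p = 0.0105).

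Of the fat body genes, Fbp1, the receptor that takes hexamerins up into the fat body, was named after its values were seen, with 20540, 19080 and 17230 CPM against 1608, 5210 and 6323 CPM. Its log2 difference of 1.58 ± 0.41 (edgeR adjusted p = 0.00713) was not called with the replicate block (edgeR adjusted p = 0.119), nor without any 1 of the random-primed replicates or poly(A)-primed replicate 2 (edgeR adjusted p = 0.0136 to 0.0521). Lsp2, a hexamerin also named after its values were seen, had 19460, 19630 and 15380 CPM against 6479, 5735 and 5335 CPM. In both the 3 random-primed libraries lay above the 3 poly(A)-primed ones, but with counts per length neither was called (0.69, edgeR adjusted p = 0.199 for Fbp1 and 0.69, edgeR adjusted p = 0.0113 for Lsp2). The other hexamerin genes measured as fat body markers overlapped between the methods and were not called, Lsp1alpha at 0.05 (edgeR adjusted p = 0.902) and Lsp1beta at 0.05 (edgeR adjusted p = 0.848). Lsp1gamma, not among those markers and named after its values were seen, held 1.17% of the random-primed counts. It was not among the 20 most abundant genes by poly(A) priming, the last of which held 0.618%.

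Mitochondrial mRNAs, which carry short tails, overlapped between the methods in sum. The 13 genes had 19780, 17400 and 26510 CPM by random priming and 18760, 23920 and 29430 CPM by poly(A) priming (exact permutation test p = 0.6). Of the 13, 4 were called higher by poly(A) priming, a share near the 26.6% of all tested genes, and none by random priming, with a median of -0.32 that turned to 0.22 on CPM alone and to 0.92 with the spike-in scaling. The replicate block gave 6 and 1, and counts per length 1 and 4 with a median of 0.53. mt:CoII, a core subunit of cytochrome oxidase, had 1668, 1473 and 2294 CPM against 6336, 7046 and 9077 CPM, a log2 difference of -2.58 ± 0.24 (edgeR adjusted p = 2.99e-06). mt:CoI, the catalytic subunit of the same enzyme, had 8239, 7365 and 11270 CPM against 4118, 5128 and 6463 CPM and was not called (0.24 ± 0.23, edgeR adjusted p = 0.371), though it was called higher by random priming on CPM alone (0.77, edgeR adjusted p = 0.00833).

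Long noncoding RNAs fell on both sides. lncRNA:Hsromega, the scaffold of the nuclear omega speckles, had 2554, 1998 and 3327 CPM against 100.3, 113 and 139 CPM, a log2 difference of 3.95 ± 0.24 (edgeR adjusted p = 2.58e-07). The dosage compensation RNA lncRNA:roX1 had 597, 494 and 720 CPM against 99.8, 104 and 133 CPM, and its partner lncRNA:roX2 had 99.1, 76.9 and 154 CPM against 12.9, 12.2 and 22.8 CPM. All 3 were called higher by random priming, but with counts per length only lncRNA:roX2 was, and lncRNA:Hsromega lay at 0.45 (edgeR adjusted p = 0.118) and lncRNA:roX1 at 0.53 (edgeR adjusted p = 0.043). The snoRNA host transcripts of the Uhg group were called higher by poly(A) priming in 4 of 7, against 26.6% of all tested genes, with a median of -1.06 that turned to 0.15 with the spike-in scaling. With counts per length 3 were called higher by random and 1 by poly(A) priming, with a median of 0.83. Uhg4 had 19.4, 17.4 and 26.7 CPM against 27.0, 30.4 and 34.1 CPM. Uhg1 was not called (0.48, edgeR adjusted p = 0.116), but was on CPM alone (1.02). Uhg7 had 0.502, 0.580 and 0.583 CPM against 27.7, 40.5 and 51.4 CPM, but it overlaps RpL23A and had no count in the HTSeq table.

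The same difference between the methods could be set beside that in the undepleted RNA, where the 3 random-primed libraries held only 428039 to 596423 counts outside rRNA. A test of the difference of the 2 log2 differences was passed by 7 of 11175 genes (0.0626%). With the replicate number as a block 388 genes passed it, so the number depends on whether the pairing of libraries is used. The family sums differed more for some short RNAs: U5 had a mean of 348 CPM by random priming of undepleted RNA and 18.6 CPM after depletion, and by poly(A) priming 18.6 and 19.3 CPM. U1 had 7396 and 834 CPM by random priming, U2 3847 and 2038 CPM, and the pseudouridylation guides 7980 and 2387 CPM. The longer 7SL RNA had 98270 and 87550 CPM. The scaRNAs, with a median length of 137 bases, had 258 and 190 CPM. U4, with a median length of 143 bases, had 420 and 143 CPM, and the methylation guides, at 79 bases, had 32.5 and 2.18 CPM. The part of length in these values was not tested.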

How the data were processed

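Ribosomal RNA was depleted from larval RNA, and fractions of each depleted sample gave a random-primed (NEBNext Ultra II Directional) and a poly(A)-primed (QuantSeq 3′ FWD) library. The authors trimmed the reads (Cutadapt, BBDuk) and assigned them with Kallisto to an index of BDGP6 transcripts and introns with the spike-ins. The deposited estimated counts per gene are not normalized and were rounded to whole numbers here. The authors' second table of the poly(A)-primed libraries holds deposited counts of uniquely mapped reads (STAR, HTSeq). Their table of fold changes between depleted and undepleted poly(A)-primed libraries was not used. Biotypes, lengths (longest transcript) and positions came from Ensembl release 115 (BDGP6.54), which gave a biotype to 17571 of the 17668 genes. No sequences are shown, since none were in the sources used here.

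Genes were tested with edgeR 4.0.16 (robust quasi-likelihood test, TMM, default filter) on the 6 depleted libraries with no covariate, and called at an adjusted p under 0.01. Errors of log2 differences are standard errors. Sums and shares were compared between methods with exact permutation tests (two-sided), adjusted over 30 families or 8 classes. Alternatives were RLE, library size or spike-in scaling, DESeq2 1.42.0, other filters, spliced counts, a length offset, thinning, the replicate block and leaving out each library. The script was tested on simulated data. Limits from a count of 0 cover counting error only.

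The named genes were the 12 largest and 12 smallest log2 differences, and up to 6 a side among protein-coding genes, with at least 10 CPM in the higher group and ranges that did not overlap, plus members of the lists. Lists and libraries were chosen with earlier results of these data known.

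Each RNA sample gave 1 library of each method, so that the replicate numbers pair the libraries. Deviations from the group means correlated at 0.20, 0.46 and 0.54 between libraries of the same number and at -0.48 to 0.15 between different numbers.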

Additional observations from a re-analysis of the deposited data

Results flagged for a closer look

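The difference between random and poly(A) priming itself differed between depleted and undepleted RNA for 7 genes (edgeR's quasi-likelihood test of the interaction, adjusted p under 0.01, 0.0626% of 11175 genes tested). At an unadjusted p under 0.05 there were 1315 (11.8%). With the replicate number as a block 388 genes were called, 337 of them above 0 and 51 below. The values below are log2 differences of the priming difference, depleted minus undepleted.

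In 4 genes the ratio of random-primed to poly(A)-primed level was lower after depletion. snRNA:U5:63BC lay at -4.57, from a mean of 286 CPM by random and 15.9 CPM by poly(A) priming of undepleted RNA to 9.54 and 15.7 CPM after depletion. snRNA:U1:95Cc lay at -3.36, with 120 and 2.42 CPM before and 12.2 and 2.89 CPM after depletion. The mucin gene Muc96D lay at -3.67 (1027 and 175 CPM before, 10.1 and 26.7 CPM after), and the glue gene Sgs1 at -2.74 (1120 and 171 CPM before, 29.0 and 36.2 CPM after). In Muc96D and Sgs1 the level was lower after depletion by both methods.

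In 3 genes that ratio was higher after depletion. Npc1a, a sterol transporter, lay at 1.85 (207 and 102 CPM before, 132 and 21.7 CPM after), l(2)k01209 at 1.79 (24.7 and 62.7 CPM before, 43.4 and 38.7 CPM after) and l(2)efl, a small heat shock protein, at 1.43 (375 and 1500 CPM before, 432 and 780 CPM after). The call was lost when any 1 of 9 of the 12 libraries was left out for snRNA:U1:95Cc (adjusted p = 0.0113 to 0.0513), of 8 for l(2)efl (0.0120 to 0.0372), of 7 for l(2)k01209 (0.0111 to 0.0235) and of 1 for Npc1a (edgeR adjusted p = 0.0118). The other 3 were called in each of these fits. The undepleted random-primed libraries hold 428039 to 596423 counts outside rRNA, and the part of this depth in the 7 values was not tested.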

How the results depend on the processing

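The calls higher by random and by poly(A) priming (3354 and 3053) became 4846 and 1768 by library size alone, 6085 and 499 with spike-in scaling, and 1235 and 1732 with the length offset. Calls of at least 4-fold (999 and 755) became 1891 and 339, 3580 and 92, and 391 and 150 in the same order, and 581 and 500 with at least 10 counts in each library. The share of calls higher by random priming was 52.3%, 73.3% by library size, 92.4% with spike-ins and 41.6% with the length offset. The median log2 difference of the longest minus the shortest of 5 length groups moved from 3.01 to 0.0372 with the length offset. Leaving out single libraries gave 2844 to 3418 and 2398 to 3081 calls, and 936 to 1082 and 668 to 842 at 4-fold. As shares of all counts the class differences (random minus poly(A), percentage points) were 3.40 for ncRNA, -11.7 for protein-coding, 0.512 for snRNA, 0.322 for snoRNA and -2.65 for ncRNA without 7SL, which turned to 0.798 (of counts outside rRNA) when lncRNA:CR34335 and lncRNA:CR40469 were also left out, an alternative chosen after seeing the data. Genes seen only by random priming (68) were 41 at 10 CPM, 53 after thinning to the smallest library and 109 when up to 3 counts were allowed in the other method. Those seen only by poly(A) priming (3) were 5 with up to 3 counts, 6 after thinning and 3 to 5 without single libraries. For the difference between depleted and undepleted RNA, 14 genes were called with RLE (11 below 0), 388 with the replicate block (337 above, 51 below), and 3 to 12 without single libraries (0 to 4 above, 3 to 8 below). The cause of these moves was not tested, except that leaving out genes, the length offset and the count limits change the measure itself.

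Directions turned on spliced counts for DIP-alpha (1.17), with the length offset for mt:tRNA:Ala-TGC (0.15), snRNA:U5:63BC (2.68), mt:tRNA:Asn-GTT (3.03), Uhg4 (0.87), sls (-0.45), ng3 (1.01) and MtnD (1.14), and with spike-in scaling for His3.3B (1.09), Uhg4 (0.15), ng3 (0.62) and Lcp1 (0.11). Among family sums, the ratio of cytosolic tRNA turned from 1.44 to 0.407 on spliced counts. The replicate block gave 4053 and 3905 calls and kept 6377 of the 6407, and DESeq2 kept 6092. With the length offset Fbp1, Lsp2, roX1 and Hsromega lost their calls. Among named genes, the block also ended the call of Fbp1 and added mt:tRNA:Asn-GTT and AttA. Poly(A)-primed depth limits what can be called absent: 3 counts there are 0.714 to 1.20 CPM.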
